A study of Mus musculus with 15 samples.

Results

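The mouse induced pluripotent stem (iPS) cell line IP20D-3 was set against the embryonic stem (ES) cell line CL11, over all genes of an Affymetrix whole-genome expression array. The 6 arrays of the comparison, 3 titled for IP20D-3 and 3 for CL11, were taken by title from the 15 arrays of the series. IP20D-3 is an iPS line on the B6D2F1 background, which is the first-generation cross of C57BL/6 and DBA/2 mice, and CL11 is an ES line on that same background. The other arrays, used here only to place IP20D-3, were 3 each of iPS line IP14D-1 (B6D2F1), iPS line IP14D-101 (C57x129S2 background) and B6D2F1 mouse embryonic fibroblasts (MEF), which the labels call the cells that iPS cells were made from. All ES and iPS cells had grown on a feeder layer of MEF stopped from dividing with mitomycin C, with leukaemia inhibitory factor (LIF), in medium with either fetal serum or a serum replacement. Which of these media each line received, and how the iPS lines were reprogrammed, is not given in the sources used here. The series holds 1 ES line, and in this comparison each kind of cell is represented by 1 line. A difference between iPS and ES cells, a difference between these 2 lines and a difference in medium therefore cannot be told apart in it.

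Only RNA of these lines was measured here. ES and iPS cells as kinds are called pluripotent: they divide without limit and can form all tissues of the embryo. Reprogramming turns a fibroblast into such a cell by forced expression of Pou5f1, Sox2, Klf4 and Myc, and it has to reset DNA methylation while leaving genomic imprints, the parental marks that keep 1 copy of a gene silent, in place. Mouse iPS lines are known to differ from ES lines most often at the imprinted Dlk1-Dio3 cluster, whose maternal copy makes the long noncoding RNAs Meg3, Rian and Mirg, the last a host of microRNAs (miRNAs). ES cultures are themselves mixed, since single cells drift towards primitive endoderm, the extraembryonic layer that makes basement membrane, or towards the primed epiblast that follows implantation.

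The Mirg gene lies at chr12:109734981-109749458 (GRCm38.p6, plus strand), and 10 of the 58 miRNA hairpins between Dlk1 and Dio3 lie within it. The array did not measure miRNAs. The mature sequences below, from RefSeq, are shown because Mirg is their host RNA and was among the most reduced RNAs of IP20D-3, with the seed (bases 2 to 8) in capitals.
mmu-miR-453: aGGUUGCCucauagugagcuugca
mmu-miR-496a-5p: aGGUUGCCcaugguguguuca
mmu-miR-154-5p: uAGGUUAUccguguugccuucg
mmu-miR-377-3p: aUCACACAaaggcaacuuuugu
mmu-miR-541-5p: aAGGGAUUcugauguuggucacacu
mmu-miR-409-3p: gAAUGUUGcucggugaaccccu
mmu-miR-369-3p: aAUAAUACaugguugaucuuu
mmu-miR-410-3p: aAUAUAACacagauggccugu
The first pair share a seed, and the 19 mature miRNAs of Mirg hold 18 different seeds.

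The start of Meg3 is shown next because its RNA fell in IP20D-3. The window runs from 250 bases before to 50 bases after the annotated start, at chr12:109540746-109541045 (GRCm38.p6, plus strand, RefSeq), and its CG pairs, the bases at which mammalian DNA is methylated, are in capitals.
Meg3: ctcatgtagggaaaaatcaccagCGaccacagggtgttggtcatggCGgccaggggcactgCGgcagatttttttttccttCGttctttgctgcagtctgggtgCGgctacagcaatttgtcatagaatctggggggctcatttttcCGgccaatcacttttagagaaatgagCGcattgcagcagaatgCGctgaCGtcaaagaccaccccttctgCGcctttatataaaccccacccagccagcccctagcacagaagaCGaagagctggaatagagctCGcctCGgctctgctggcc
This window holds 13 CG pairs, and 37.9% of the 32851 promoter windows in the table hold at least as many. Methylation was not measured in the files used here.

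Promoters of 4 genes that rose in IP20D-3 and belong to the amino acid and endoplasmic reticulum (ER) stress response are shown with the motif TGATGNAA, searched on both strands, in capitals. This motif is the core of the element that transcription factor ATF4 is known to bind. The windows, of the same length, lie at chr19:27216770-27217069 (plus strand) for Vldlr, chr2:119350992-119351291 (plus) for Chac1, chr7:126625421-126625720 (minus) for Nupr1 and chr8:94386179-94386478 (plus) for Herpud1.
Vldlr: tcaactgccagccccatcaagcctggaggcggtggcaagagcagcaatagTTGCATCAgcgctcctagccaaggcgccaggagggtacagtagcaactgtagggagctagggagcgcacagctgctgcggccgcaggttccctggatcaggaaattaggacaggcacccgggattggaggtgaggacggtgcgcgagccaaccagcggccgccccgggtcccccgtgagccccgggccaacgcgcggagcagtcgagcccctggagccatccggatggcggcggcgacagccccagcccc
Chac1: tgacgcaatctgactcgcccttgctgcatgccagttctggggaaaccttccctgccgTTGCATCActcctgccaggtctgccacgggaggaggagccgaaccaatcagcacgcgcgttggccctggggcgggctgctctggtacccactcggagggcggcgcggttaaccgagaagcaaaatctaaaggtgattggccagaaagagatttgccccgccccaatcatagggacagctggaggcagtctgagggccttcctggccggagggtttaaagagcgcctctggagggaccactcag
Nupr1: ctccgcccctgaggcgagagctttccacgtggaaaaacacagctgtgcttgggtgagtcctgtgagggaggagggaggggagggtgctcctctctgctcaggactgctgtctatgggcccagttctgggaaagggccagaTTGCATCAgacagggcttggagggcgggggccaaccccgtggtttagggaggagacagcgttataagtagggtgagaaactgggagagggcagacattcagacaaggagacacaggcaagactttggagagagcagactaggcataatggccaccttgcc
Herpud1: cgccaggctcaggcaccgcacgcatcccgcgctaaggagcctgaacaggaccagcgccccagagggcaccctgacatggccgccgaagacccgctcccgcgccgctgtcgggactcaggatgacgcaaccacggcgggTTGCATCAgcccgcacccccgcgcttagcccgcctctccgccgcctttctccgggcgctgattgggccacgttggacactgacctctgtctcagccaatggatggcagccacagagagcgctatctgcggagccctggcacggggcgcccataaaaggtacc
In all 4 the match reads TTGCATCA on the printed strand, at 200, 193, 110 and 112 bases before the start in the order shown. Trib3, another stress gene that rose and is not shown, differs in both, with TTACATCA at 14 bases after the start.

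The signals are linear fluorescence intensities, scaled to 1 trimmed mean over all arrays. Differences are given on the scale of log2(signal + 16), and a gene was called where the adjusted p of the limma test was under 0.05. A gene is represented by its brightest probe set. Background was a signal of 2087, the 95th percentile of 39 olfactory receptor genes, and where the mean of the dimmer line lay below it the change is given as a lower bound on the fold. Trimmed means before scaling differed by up to 1.83 times between arrays, the 3'/5' actin ratio was 1.28 ± 0.0262 in IP20D-3 and 1.21 ± 0.018 in CL11 (SD, n = 3), and the number of arrays limits the precision. Arrays of IP20D-3 correlated with each other at 0.927 to 0.929, with CL11 at 0.911 to 0.918, with IP14D-1 at 0.920 to 0.926, with IP14D-101 at 0.895 to 0.923 and with MEF at 0.786 to 0.790. The sum of 8 markers of pluripotent cells was 3146000 to 3481000 in IP20D-3 and 3198000 to 3413000 in CL11, and 0 of the 8 were called. All 8 lay below background in MEF, and the spread of the MEF arrays enters the test. With only the 6 arrays of the comparison fitted, Sox2 and Cdh1 were called higher and Nanog lower (adjusted p = 0.0268, 0.00429 and 0.0447). The sum of 12 fibroblast markers was 32520 to 34500 in IP20D-3 and 22630 to 28440 in CL11, against 5949000 to 6611000 in MEF. Of these 12, 7 lay below background in IP20D-3 and 8 in CL11, Col1a1 among them in both lines. Only 1 of the 12 was called higher and 0 lower. The MEF arrays carried no Eif2s3y or Uty signal above background, although these Y-linked genes were above it in IP20D-3, so the hybridised MEF and the line differ in sex-linked RNA.

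Of 18193 genes, 1723 (9.47%) were called higher and 1830 (10.1%) lower in IP20D-3 than in CL11. Among the 11914 genes above background in either line, 13.9% were higher and 14.9% lower. Those shares are the closer reference for the many gene lists below that hold mostly such genes. Over all 45037 probe sets the counts were 3428 higher (7.61%) and 3092 lower (6.87%). The arrays of both lines did not overlap for 6891 genes (37.9%). Most called differences were small: the median size was 0.67 log2 units among the higher and 0.61 among the lower genes, and 410 higher and 343 lower genes reached a fitted 2-fold difference with the brighter line above background. Of the calls, 48.5% were higher, but only 30.5% were higher when arrays were scaled to their medians and 18.5% with no scaling, where the median difference of all genes moved to -0.11 and -0.20 from 0.015. The group counts and medians below are those of the trimmed-mean scaling. Many of the counts that another scaling moved are given with it, but not all, so a count given alone can also depend on the scaling.

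**Figure D1:**
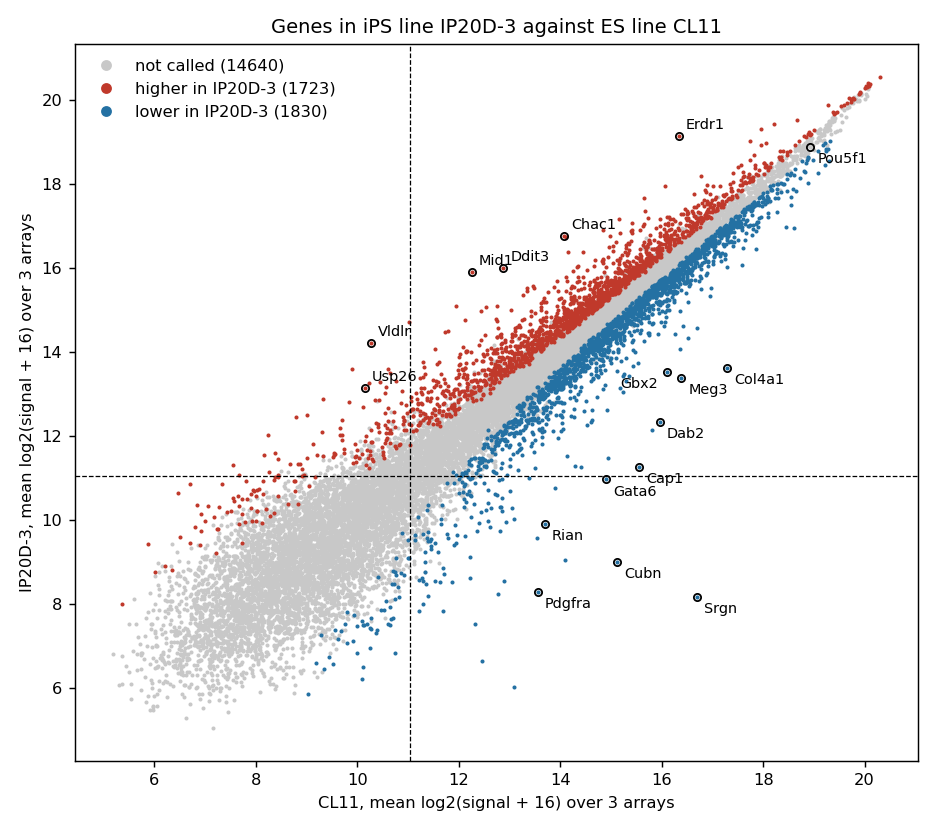
Mean log2(signal + 16) of each gene over the 3 IP20D-3 arrays (vertical) and the 3 CL11 arrays (horizontal). Red points mark the 1723 genes called higher and blue points the 1830 called lower in IP20D-3, dashed lines mark the background of 11.04, and Srgn, Cubn and Pdgfra lie far below it in IP20D-3 while above it in CL11.

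Of the 4 reprogramming factors, 0 were called higher and 2 were called lower. Pou5f1, the central pluripotency factor, had signals of 500600, 463500 and 468900 in IP20D-3, against 486400, 520300 and 493200 in CL11, and the arrays overlapped (log2 difference -0.07, SE 0.23, adjusted p = 0.909). Sox2, its partner on DNA, had 427800, 416800 and 368000 in IP20D-3, against 360100, 321500 and 302900 in CL11. All Sox2 values of IP20D-3 were the higher ones, but the difference of 0.30 was not called (adjusted p = 0.0985). Klf4, a factor of the naive state downstream of LIF, fell by 0.77 (SE 0.10, adjusted p = 3.4e-05) to 153300, 122000 and 125000 in IP20D-3, against 244800, 224100 and 212700 in CL11. Myc, a driver of growth and proliferation, fell by 0.98 (SE 0.18, adjusted p = 0.000806), with 13980, 27760 and 17500 in IP20D-3 and 33820, 44210 and 34830 in CL11, without overlap for either gene.

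The wider pluripotency network held 4 higher and 5 lower genes among its 32 members with a probe set, with a median log2 difference of -0.14. Leaving out any 1 of the 6 arrays gave 3 lower and 2 to 4 higher, and medians or no scaling gave 7 lower and 3 higher. Nanog was not called (-0.24, adjusted p = 0.276). Gbx2, a homeobox gene that LIF and STAT3 signalling is known to induce in mouse ES cells, showed the largest fall. It had 9726, 13110 and 12380 in IP20D-3, against 65900, 75600 and 70170 in CL11, which did not overlap (-2.60, SE 0.19, adjusted p = 3.44e-08). Gbx2 was also lower in IP20D-3 than in IP14D-1 (-1.08, adjusted p = 0.00187) and IP14D-101 (-2.74, adjusted p = 2.47e-08). Nr5a2, a nuclear receptor that can activate Pou5f1, fell by 1.42 (adjusted p = 0.0473), a call lost on leaving out any 1 of the 6 arrays (adjusted p = 0.0873 to 0.123), and Eras, an ES cell-specific Ras, fell by 0.87 (adjusted p = 0.00124). Dppa3, a maternal factor that protects imprints after fertilisation, rose instead: it had 65950, 73230 and 83830 in IP20D-3, against 35970, 32520 and 39320 in CL11 (1.05, SE 0.27, adjusted p = 0.0135). Without CL11 replicate 2 or IP20D-3 replicate 3 the adjusted p of Dppa3 was 0.0578 and 0.0603. Klf2 (0.78) and the telomere and replication factor Rif1 (0.80) also rose.

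In the Dlk1-Dio3 cluster the noncoding RNAs Meg3, Rian and Mirg were all called lower than in CL11, 3 of the 4 members with a probe set. Meg3, a maternally expressed long RNA, had 11060, 10120 and 10470 in IP20D-3, against 85790, 86250 and 85600 in CL11. Each IP20D-3 value lay below all CL11 values by a wide margin, and Meg3 fell by 3.02 (SE 0.12, adjusted p = 2.23e-11). Rian, the host of small nucleolar RNAs at chr12:109603945-109661716, had 537, 931 and 1648 in IP20D-3, all below background, against 13700, 13870 and 12210 in CL11, at least 6.30-fold lower (adjusted p = 2.22e-08). Mirg, the miRNA host, had 3239, 2651 and 2897 in IP20D-3, against 21670, 15620 and 17280 in CL11. It stayed above background and did not overlap (-2.62, SE 0.16, adjusted p = 4.05e-09).

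Meg3 was measured by 11 probe sets. Of these, 8 were called lower and 0 higher, and the strongest stood at -4.10. The name of the brightest, used above, marks it as having probes that can match other sequences. A called probe set without such a mark gave -2.97. All 4 probe sets of Rian and both of Mirg were called lower. The IP20D-3 mean lay below background for all 4 of Rian and for the second of Mirg. Dlk1, the paternally expressed Notch ligand-like gene at the other end of the cluster, had 4067, 4280 and 5953 in IP20D-3, against 6673, 4248 and 5810 in CL11. These overlapped and the difference was not called (-0.22, SE 0.20, adjusted p = 0.556), and the name of the Dlk1 probe set marks it as one whose probes can match several transcripts.

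The fall in the maternal RNAs was tested against the other iPS lines too, in comparisons that share the IP20D-3 arrays. Meg3 had 157000, 165600 and 159400 in IP14D-1 and 88540, 96390 and 59200 in IP14D-101, and IP20D-3 lay lower by 3.93 (adjusted p = 7.01e-13) and 2.92 (adjusted p = 3.61e-11). Rian had 17250 to 19810 in IP14D-1 and 10220 to 15690 in IP14D-101, so that IP20D-3 was at least 8.97-fold and 6.21-fold lower. For Mirg the differences were -3.03 and -2.28 (adjusted p = 1.43e-09 and 3.09e-08). Dlk1 was lower in IP20D-3 than in IP14D-1 by 1.60 (adjusted p = 6.1e-05) and than in IP14D-101 by 1.29 (adjusted p = 0.000169), while it was not called against CL11. All 4 measured members were thus lower in IP20D-3 than in either of the other iPS lines, where the shares of all genes called lower were 3.53% against IP14D-1 and 11.7% against IP14D-101.

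**Figure D2:**
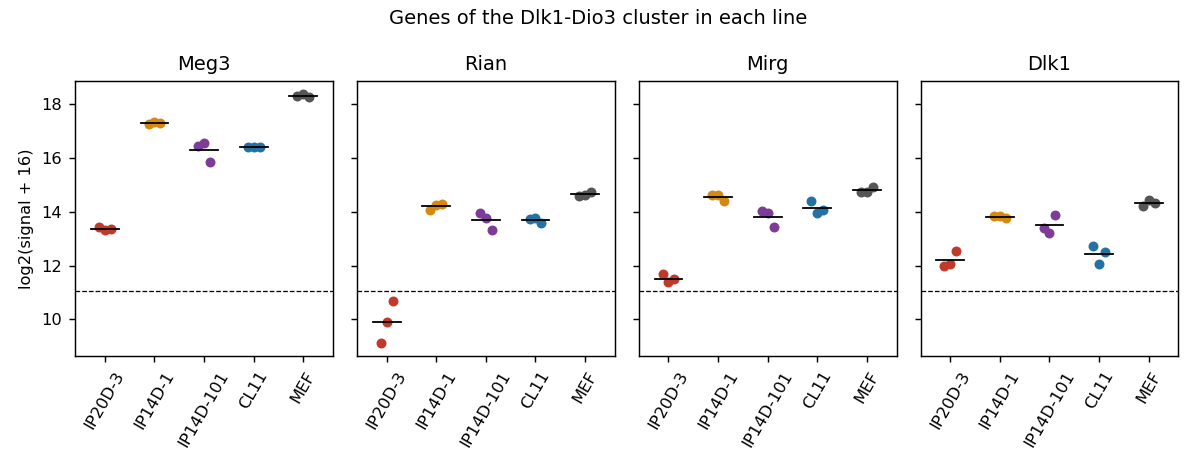
log2(signal + 16) of 4 genes of the Dlk1-Dio3 cluster on each array (points), with the mean of 3 arrays (bars) and the background of 11.04 (dashed line). IP20D-3 is the lowest line for Meg3, Rian and Mirg, and overlaps CL11 for Dlk1.

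Imprinted genes elsewhere in the genome were not reduced as a group: of 46 with a probe set, 8 were called higher and 4 lower, with a median of 0.17. Plagl1, a zinc finger gene of the paternal copy that regulates an imprinted gene network, had 35570, 32670 and 35110 in IP20D-3, against 6339, 6257 and 5275 in CL11. It rose by 2.53 without overlap (SE 0.12, adjusted p = 1.74e-10), and was 1.03 lower than in IP14D-1 (adjusted p = 3.53e-05). The rise rests on 1 of 3 Plagl1 probe sets, since the other 2 lay below background in both lines. The name of that 1 probe set marks it as having probes that can match other sequences. Impact, known as an inhibitor of the amino acid sensor kinase GCN2, rose by 1.54 (SE 0.08, adjusted p = 7.61e-10) and Mkrn3 by 1.18 (adjusted p = 0.00035). Igf2r, a maternal gene that clears IGF2 (0.78), and Grb10, a growth inhibitor (0.63), were higher as well. Ddc, which makes dopamine and serotonin, fell by 1.45 (adjusted p = 1.31e-07) and Zdbf2 by 0.97 (adjusted p = 0.000499). H19 had no probe set of a single gene under its own name and was not measured here.

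The list for DNA methylation and demethylation, which holds the enzymes, their partners and proteins that bind methylated DNA, gave 2 higher and 5 lower among 18 members, and 3 lower without CL11 replicate 3. With no scaling 1 was higher and 7 were lower. Only Dnmt3b among those named here is an active methyltransferase. Dnmt3b, a de novo methyltransferase that is also a primed epiblast gene, rose by 0.88 (adjusted p = 0.000246). Dnmt3l, its catalytically inactive partner, had 307100, 337200 and 299000 in IP20D-3, against 552600, 583600 and 537600 in CL11, and fell by 0.83 (SE 0.20, adjusted p = 0.0074; 0.0606 with no variance trend). Zfp57, which protects methylation at imprinted regions, had 46090, 53040 and 50900 in IP20D-3, against 98140, 87560 and 106200 in CL11. The arrays did not overlap, and Zfp57 fell by 0.96 (SE 0.11, adjusted p = 8.85e-06), while it stood 0.39 above IP14D-1, which was not called (adjusted p = 0.0514). Among 37 Polycomb and other chromatin enzymes, 6 were higher and 8 lower, and with medians or no scaling 2 and 0 were higher. Phf19, a Polycomb partner, rose by 0.76 and the H3K27 demethylase Kdm6b fell by 0.89 (adjusted p = 0.00659 and 2.32e-06), and Phf19 was not called with no scaling (adjusted p = 0.151).

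Primitive endoderm genes were the most reduced of the larger lists: 16 of 21 members were called lower and 1 higher, and the median was -2.28 where all genes had 0.015. The transcription factors that set up this lineage were at or below background in IP20D-3. Gata6 had 1738, 2566 and 1729 in IP20D-3, against 28190, 34380 and 29930 in CL11, at least 13.7-fold lower (adjusted p = 1.54e-09). Gata4 had 1043, 2847 and 1660 in IP20D-3, against 15770, 16200 and 13960 in CL11, at least 6.56-fold lower (adjusted p = 3.8e-05). For each of these factors 1 of 3 IP20D-3 arrays was above background. Sox7, which acts with them, had 2048, 2990 and 2311 in IP20D-3, against 21200, 22720 and 21060 in CL11, and fell by 3.15 (SE 0.36, adjusted p = 7.35e-06).

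Products of the endoderm followed. Cubn, an endocytic receptor of visceral endoderm, had 487, 217 and 1120 in IP20D-3, all below background, against 34550, 33760 and 38310 in CL11, at least 16.9-fold lower (adjusted p = 9.6e-08). Pdgfra, the receptor that marks the lineage, had 915, 174 and 151 in IP20D-3, against 12620, 12050 and 11560 in CL11, at least 5.75-fold lower (adjusted p = 3.49e-07). The basement membrane collagens were well above background in both lines and did not overlap. Col4a1 had 12710, 11990 and 12700 in IP20D-3, against 165500, 163400 and 154500 in CL11 (-3.69, SE 0.09, adjusted p = 1.48e-14), and Col4a2 fell by 3.67 (SE 0.15, adjusted p = 2.9e-11). Dab2, an endocytic adaptor needed in visceral endoderm, had 5288, 5306 and 4793 in IP20D-3, against 65800, 61530 and 64170 in CL11, and fell by 3.63 (SE 0.10, adjusted p = 4.58e-14). Outside the list, Srgn, a proteoglycan of secretory granules, showed the largest bound of all genes: it had 249, 341 and 236 in IP20D-3, against 99570, 104700 and 115100 in CL11, at least 50.6-fold lower (adjusted p = 1.25e-09).

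In bulk RNA, fewer cells of a type and less RNA per cell cannot be told apart, and this holds for each lineage described here. All 8 endoderm markers were called lower, and their summed signal was 25430 to 27930 in IP20D-3, 48180 to 51300 in IP14D-1 and 241200 to 285200 in IP14D-101, against 342800 to 352600 in CL11. Both B6D2F1 iPS lines thus lay low. In MEF the sum of the same markers was 733600 to 796700. There Gata4, Sox17, Sox7 and Cubn lay below background and the other markers above it, so those others are not particular to endoderm. The part of feeder RNA in these sums was not tested. Against IP14D-1, 4 members of the list were called lower and 1 higher, with Col4a1 1.32 and Dab2 0.56 lower (adjusted p = 4.82e-08 and 0.0019) and the mean of Gata6 below background in both. Against IP14D-101, 15 were lower and 0 higher. Definitive and visceral endoderm genes, of which 8 of 18 were above background in either line, gave 4 lower, with Foxa2 at least 1.78-fold and the Wnt inhibitor Dkk1 at least 2.89-fold lower, and 1 higher, Apoe (1.26, adjusted p = 1.29e-06). Foxa2 was not called without IP20D-3 replicate 2 (adjusted p = 0.0607).

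Genes of the primed epiblast went the other way, with 14 of 19 called higher, 1 lower and a median of 1.08. Fgf5, the classical marker of the state after implantation, had 1496, 4901 and 3608 in IP20D-3, with 2 of 3 arrays above background, against 356, 112 and 470 in CL11, at least 1.43-fold higher (adjusted p = 0.00412). Otx2, a transcription factor that drives the exit from the naive state, had 19960, 26220 and 23350 in IP20D-3, against 12110, 9172 and 11010 in CL11. It rose by 1.11 without overlap (SE 0.20, adjusted p = 0.000763). Pou3f1, another member of the list, had 31420, 49600 and 39780 in IP20D-3, against 13930, 11640 and 13910 in CL11, and rose by 1.59 (SE 0.29, adjusted p = 0.000864). The surface protein Cd24a rose by 2.22 (SE 0.11, adjusted p = 4e-10), the kinase Pim2 by 2.00 (adjusted p = 5.38e-10) and Sox11 by 1.43 (adjusted p = 1.75e-05). Nes, an intermediate filament of neural progenitors, was at least 4.62-fold higher by its brightest probe set (adjusted p = 4.22e-08), but a second probe set above background was not called (0.58, adjusted p = 0.0806). Etv4, a target of FGF signalling, was the exception and fell by 1.84 (adjusted p = 1.28e-07). Klf4 fell and Nanog was not called, as given above. With no scaling 9 members were higher and 3 lower. Against IP14D-1 the list had 1 higher and 1 lower, and against IP14D-101 it had 6 higher and 3 lower.

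Regulators of the amino acid and ER stress response were raised in IP20D-3, with 16 of 24 called higher, 2 lower and a median of 1.01. Cells answer a lack of amino acids, or misfolded protein in the ER, by phosphorylating the translation factor eIF2alpha, which favours translation of Atf4 and, through it, genes for amino acid supply and for stress. Atf4 RNA had 361700, 272800 and 306800 in IP20D-3, against 170600, 193800 and 161700 in CL11, without overlap (0.83, SE 0.10, adjusted p = 7.4e-06). Ddit3, which encodes the stress factor CHOP, had 75270, 52590 and 68090 in IP20D-3, against 7611, 9520 and 5861 in CL11, and rose by 3.10 (SE 0.24, adjusted p = 8.06e-08). The glutathione-degrading enzyme Chac1 had 115200, 106600 and 110500 in IP20D-3, against 21360, 16790 and 14260 in CL11, and rose by 2.68 (SE 0.14, adjusted p = 5.61e-10). Every IP20D-3 array lay above every CL11 array for these 3 genes.

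The stress coregulator Nupr1 had 145600, 76670 and 113200 in IP20D-3, against 18600, 19870 and 14950 in CL11, and rose by 2.61 (SE 0.26, adjusted p = 1.3e-06). Trib3, a pseudokinase that restrains ATF4, had 97490, 76160 and 83380 in IP20D-3, against 25670, 21980 and 20220 in CL11 (1.92, SE 0.23, adjusted p = 1.01e-05). Herpud1, part of ER-associated degradation, had 43820, 39340 and 42460 in IP20D-3, against 7823, 11960 and 10410 in CL11 (2.08, SE 0.13, adjusted p = 5.3e-09). None of these overlapped between the lines. The lipoprotein receptor Vldlr had 21400, 17540 and 17570 in IP20D-3, against 1147, 3645 and 428 in CL11, where only the second array was above background, at least 7.42-fold higher (adjusted p = 2.72e-05). Jdp2, a repressor of the AP-1 family outside this list, rose by 2.71 (SE 0.26, adjusted p = 9.24e-07). Xbp1, the effector of the IRE1 branch, fell by 0.74 (adjusted p = 5.46e-05), and the ER oxidase Ero1a fell by 0.52 (adjusted p = 0.00227).

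ER chaperones did not rise with these regulators: 10 of 20 were called lower, 1 higher, and the median was -0.32. Hspa5, the master chaperone BiP, had 150400, 252900 and 241200 in IP20D-3, against 338300, 423400 and 401600 in CL11, and fell by 0.88 without overlap (SE 0.16, adjusted p = 0.000738). Pdia4, a disulfide isomerase, fell by 1.25 and Manf by 0.74 (adjusted p = 0.000791 and 1.63e-05). Derl1, a channel component of ER-associated degradation, rose by 0.51 (adjusted p = 0.000115), and with no scaling 0 were higher and 13 lower. Asns, the asparagine synthetase that is a classical ATF4 target, had 373600, 294800 and 302200 in IP20D-3, against 273800, 314100 and 279300 in CL11, which overlapped (0.16, adjusted p = 0.368).

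Amino acid supply gave intermediate counts. Serine, glycine and one-carbon enzymes had 7 of 16 higher and 0 lower, led by the glycine cleavage enzyme Gldc (1.64, adjusted p = 0.00319), the folate enzymes Aldh1l2 (1.00) and Mthfd2 (0.77), and Phgdh, which opens serine synthesis (0.68, adjusted p = 0.000104). Amino acid transporters had 8 of 20 higher and 2 lower, with the glycine transporter Slc6a9 at 1.43, the neutral amino acid carrier Slc1a4 at 1.15 and the taurine transporter Slc6a6 at -0.82. Cytosolic tRNA synthetases had 6 of 18 higher and 1 lower, with Sars at 0.70 and Hars at -0.45. These counts depended on the scaling: with medians or with no scaling, 6 and 3 of the serine and one-carbon enzymes, 4 and 3 of the transporters, and 2 and 2 of the synthetases were higher, and with no scaling 1 of the first group was lower. Without IP20D-3 replicate 1, 5 transporters were higher, and of the calls of all transporters 1 lay below background in both lines. Hars and Aldh1l2 were not called without IP20D-3 replicate 1 (adjusted p = 0.0576 and 0.079), nor Aldh1l2 without CL11 replicate 2 (adjusted p = 0.0641). Aldh1l2 was also not called with no scaling or with only the 6 arrays of the comparison fitted (adjusted p = 0.0965 and 0.053).

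The promoter motif was found in 6 of the 16 stress regulators called higher that have a window in the table (Atf3, Trib3, Chac1, Nupr1, Vldlr and Herpud1) and in 1 of the other 7 (Fgf21). Of all 27025 genes in the table, 4.51% held a match. Among one-carbon enzymes with a window the motif was in 0 of 6 called higher and 1 of 8 others, among transporters in 1 of 7 and 2 of 7, and among synthetases in 3 of 5 and 2 of 7. Trib3 has its match 14 bases after the start. The absence of a match says only that these letters are not in the window.

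Set against the other iPS lines, the stress list gave 1 higher and 3 lower against IP14D-1, and 17 higher and 1 lower against IP14D-101. Ddit3 had 77230, 79110 and 45130 in IP14D-1 and 7176, 3958 and 8036 in IP14D-101, so that IP20D-3 differed by -0.01 (adjusted p = 0.991) and 3.40 (adjusted p = 3.18e-08). Chac1 was 0.61 lower in IP20D-3 than in IP14D-1 (adjusted p = 0.0153). Whether the media of the lines differed is not given, and its part in these values was not tested.

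**Figure D3:**
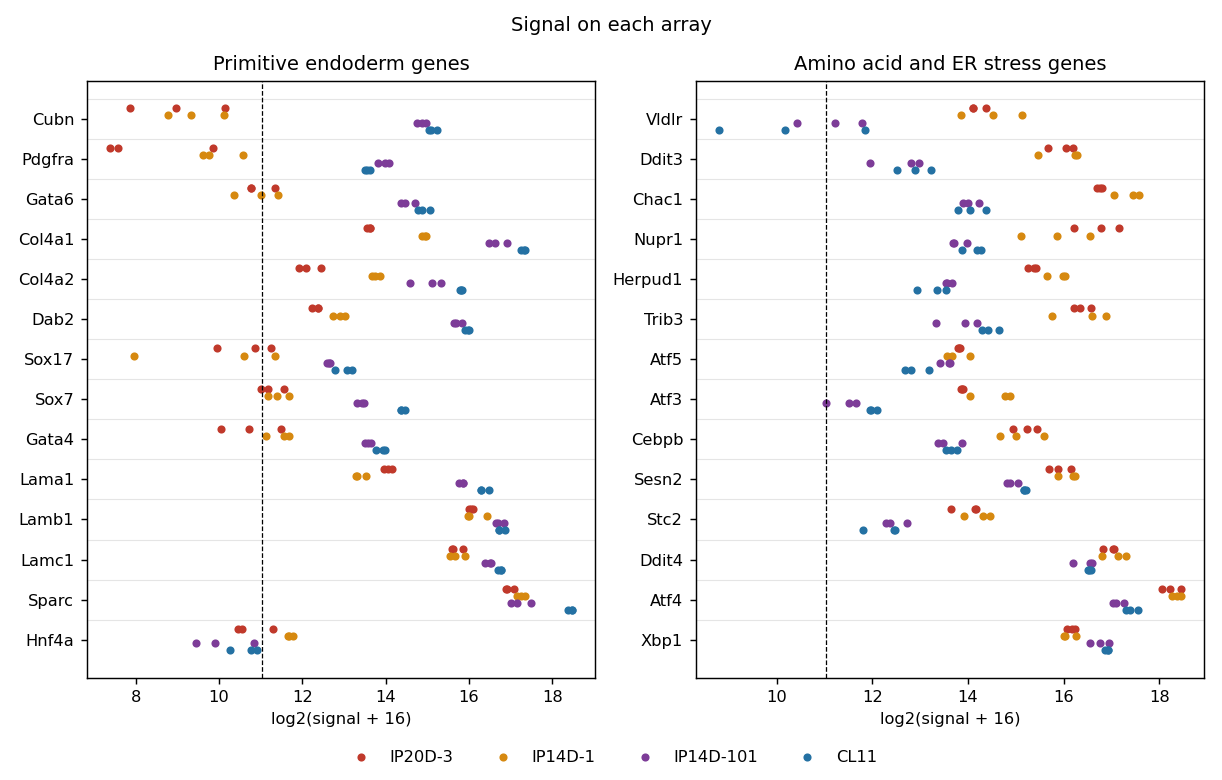
log2(signal + 16) on each array for 14 primitive endoderm genes (left panel) and 14 amino acid and ER stress genes (right panel) in 4 lines, with the background of 11.04 as a dashed line. IP20D-3 and IP14D-1 lie to the left of IP14D-101 and CL11 for endoderm genes such as Cubn, Gata6 and Dab2, and to the right for stress genes such as Ddit3 and Chac1.

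Hypoxia and glycolysis genes were reduced, with 16 of 29 called lower, 2 higher and a median of -0.40. With medians or no scaling 1 was higher. The collagen prolyl hydroxylase P4ha2 had 4029, 4421 and 6309 in IP20D-3, against 22910, 23950 and 23650 in CL11, and fell by 2.28 (SE 0.16, adjusted p = 1.51e-08). P4ha1 fell by 1.73 (adjusted p = 7.41e-08). Egln3, which marks HIF for degradation and is itself a HIF target, had 7057, 17060 and 12210 in IP20D-3, against 39420, 41440 and 36890 in CL11. It fell by 1.78 without overlap, although its IP20D-3 arrays spread widely (SE 0.26, adjusted p = 7.85e-05). The glucose transporter Slc2a1 had 144800, 239700 and 183000 in IP20D-3, against 395200, 393600 and 359900 in CL11, and fell by 1.05 (SE 0.13, adjusted p = 1.35e-05). Slc16a3, which exports lactate, fell by 1.36, and Ankrd37 by 1.41 (adjusted p = 7.38e-05 and 0.00635). Pfkfb3, which raises glycolytic flux, rose by 1.25 (adjusted p = 0.000605) and Hif1a itself by 0.34 (adjusted p = 0.00197), which was not called with medians or no scaling (adjusted p = 0.191 and 0.617). Against IP14D-1 the list gave 4 higher and 2 lower, and against IP14D-101 4 higher and 15 lower.

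Other metabolic groups moved less. Cholesterol and fatty acid genes had 8 of 30 lower and 2 higher, with the desaturase Scd1 at -0.86 (adjusted p = 0.00053) and Mvk at -0.79, and the sterol demethylase Cyp51 at 0.76 (adjusted p = 1.29e-05). With no scaling 14 were lower, and without IP20D-3 replicate 2 13 were. Mvk was not called without CL11 replicate 1, CL11 replicate 3 or IP20D-3 replicate 1 (adjusted p = 0.0544 to 0.168). Against IP14D-1 the cholesterol list gave 4 higher and 2 lower, and against IP14D-101 0 higher and 23 lower. Respiratory chain and ATP synthase genes had 8 of 36 lower and 2 higher, with Ndufa4 at -0.82 and Cox4i1 at 0.33 (adjusted p = 1.6e-05 and 0.0039), and with no scaling 18 were lower and 0 higher, Cox4i1 not among the calls (adjusted p = 0.649). Cytosolic ribosomal proteins had 9 of 29 higher and 0 lower, with a median of 0.23, but 0 were called with medians or no scaling, 1 with quantile normalization, 5 and 2 without CL11 replicates 1 and 3, and 2, 5 and 14 without IP20D-3 replicates 1, 2 and 3. Relative to all genes their median was 0.21, 0.21, 0.21 and 0.053 with the trimmed mean, medians, no scaling and quantile normalization.

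Cell cycle and DNA replication genes were lower in 12 of 39 and higher in 1, and lower in 18 with no scaling. Aurkb, the kinase of the chromosomal passenger complex, had 34530, 39630 and 37460 in IP20D-3, against 78250, 74080 and 80270 in CL11, and fell by 1.06 without overlap (SE 0.10, adjusted p = 1.28e-06). The G1 cyclin Ccnd3 fell by 1.00 (adjusted p = 9.96e-07) and Cdc25b by 0.65, while the helicase subunit Mcm7 rose by 0.25 (adjusted p = 0.0312), a rise not called with medians or no scaling, nor on leaving out an array other than IP20D-3 replicate 3 (adjusted p = 0.0617 to 0.156). p53 targets and cell cycle inhibitors had 11 of 24 lower and 4 higher, and 2 higher with medians or no scaling. Cdkn1a, the p21 inhibitor, had 18260, 19380 and 14020 in IP20D-3, against 34520, 37400 and 36250 in CL11, and fell by 1.08 (SE 0.11, adjusted p = 2.79e-06), and it was lower than in IP14D-1 by 1.17 and than in IP14D-101 by 1.08. Plk2 fell by 0.99 and Btg2 by 0.92. Gadd45g, a stress sensor, had 26900, 26370 and 30680 in IP20D-3, against 6126, 7297 and 7145 in CL11, and rose by 2.03 (SE 0.12, adjusted p = 3.44e-09).

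Fibroblast and feeder matrix genes gave 6 higher and 2 lower of 33 (3 and 4 with no scaling), and smooth muscle contractile genes 5 higher and 3 lower of 18. Of the matrix calls, 1 lay below background in both lines. Without IP20D-3 replicate 1, 4 matrix and 1 of the smooth muscle genes were lower, and without CL11 replicate 3 1 smooth muscle gene was. The summed fibroblast markers given above were higher in IP20D-3 without overlap, although only 1 of the 12 markers was called. Their part in these counts was not tested. Col1a1, the main fibroblast collagen, was below background on all arrays of both lines. Among the matrix genes Thbs1 rose by 0.71 and Fn1 by 0.63 (adjusted p = 0.00165 and 7.84e-05), Thbs1 not being called with no scaling (adjusted p = 0.0693), while S100a6, a calcium-binding protein, had 20240, 27460 and 25180 in IP20D-3, against 108300, 104400 and 104300 in CL11, and fell by 2.13 (SE 0.11, adjusted p = 5.03e-10). Tagln, an actin-binding protein of smooth muscle, had 37310, 45110 and 51200 in IP20D-3, against 11640, 9536 and 10090 in CL11, and rose by 2.09 (SE 0.11, adjusted p = 8.9e-10). Cnn1, which binds the same filaments, was at least 3.57-fold higher (adjusted p = 1.77e-05). Against IP14D-1, where the fibroblast marker sum was 64950 to 70130, IP20D-3 had 15 of the 33 matrix genes lower and 1 higher, and Tagln was 1.47 lower (adjusted p = 1.8e-07).

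Epithelial junction and keratin genes were higher in 8 of 25 and lower in 1, with a median of 0.42. Rab25, a GTPase of polarised epithelium, had 13310, 10710 and 12710 in IP20D-3, against 333, 2483 and 999 in CL11, at least 5.48-fold higher (adjusted p = 3.21e-05). The tight junction protein Cldn7 rose by 1.70 (adjusted p = 0.000222), the splicing factor Esrp1 by 1.65 (adjusted p = 5.92e-05) and the polarity protein Crb3 by 1.41 (adjusted p = 1.71e-05). E-cadherin, Cdh1, had 294600, 309800 and 278800 in IP20D-3, against 251500, 188600 and 196400 in CL11. Its arrays did not overlap, but it was not called (0.48, adjusted p = 0.104).

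Interferon response and antigen presentation genes gave 7 higher and 1 lower of 31, and 3 higher and 3 lower with no scaling. Of the calls, 1 lay below background in both lines. The class I heavy chain H2-D1 had 26080, 24980 and 24230 in IP20D-3, against 14230, 13540 and 12770 in CL11, and rose by 0.89 (SE 0.11, adjusted p = 1.54e-05). The 9 probe sets of H2-D1 disagreed, with 2 called higher and 2 lower, and class I genes are near-identical copies whose probes can cross-hybridise, so its direction is uncertain. B2m, the light chain, rose by 0.77 and H2-K1 by 0.59 (adjusted p = 0.000239 and 0.00211), H2-K1 not being called with no scaling (adjusted p = 0.115), whereas the antiviral membrane protein Ifitm3 fell by 0.82 (adjusted p = 3.19e-06). Psmb8, an immunoproteasome subunit, was near background in IP20D-3 and at least 1.12-fold higher (adjusted p = 0.00246).

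**Figure D4:**
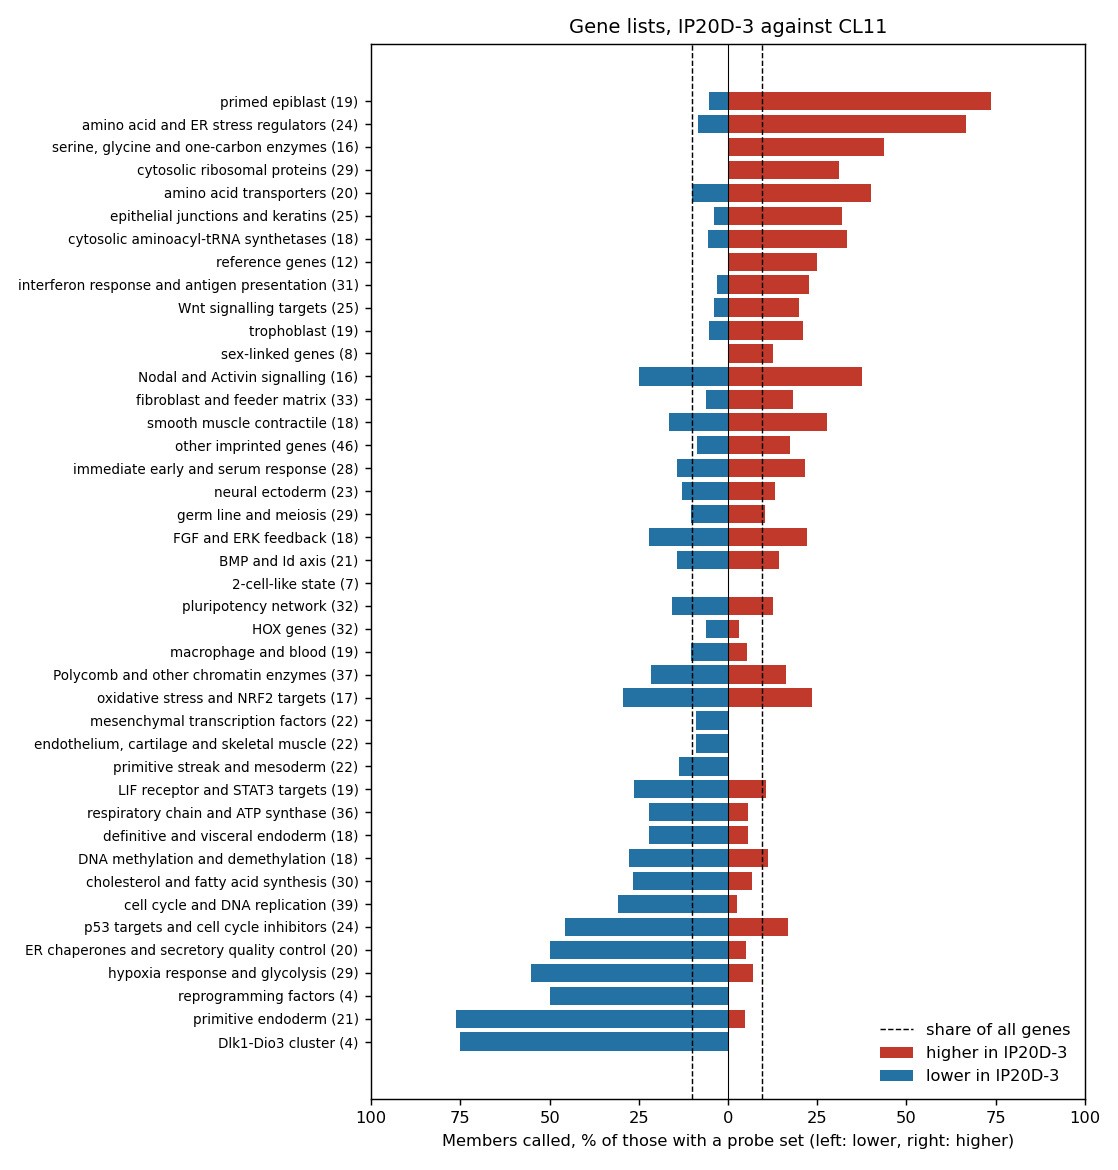
Share of each gene list called higher (right, red) and lower (left, blue) in IP20D-3 than in CL11, in percent of members with a probe set, whose number is in brackets. Dashed lines mark the shares of all genes, 9.47% higher and 10.1% lower. Among genes above background in either line, which make up most of many lists, the shares were 13.9% and 14.9%. Primed epiblast and stress regulators reach furthest to the right, and primitive endoderm and the Dlk1-Dio3 cluster furthest to the left.

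Several of the largest single differences belonged to no list. Mid1, an X-linked microtubule-associated ubiquitin ligase whose gene crosses the pseudoautosomal boundary in mice, had 62320, 59310 and 59600 in IP20D-3, against 4656, 5090 and 4933 in CL11. It rose by 3.62 (SE 0.18, adjusted p = 2.34e-10) by 1 of 3 probe sets, the other 2 being below background, and did not differ by a called amount from IP14D-1 (0.03, adjusted p = 0.962). Erdr1, a gene of the pseudoautosomal region itself, had 653200, 532300 and 551000 in IP20D-3, against 83790, 95220 and 70940 in CL11, and rose by 2.80 (SE 0.15, adjusted p = 6.61e-10). S100a13, a calcium-binding protein that helps release FGF1, had 38070, 24900 and 43550 in IP20D-3, against 2984, 4701 and 4403 in CL11, and rose by 3.12 (SE 0.23, adjusted p = 4.59e-08). None of the 3 genes overlapped between the lines.

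Patl2, an oocyte RNA-binding protein, rose by 2.72 (SE 0.22, adjusted p = 1.06e-07) and Slc27a2, a fatty acid transport protein, by 2.63 (SE 0.35, adjusted p = 4e-05). Usp26, an X-linked deubiquitinase of the testis, had 9984, 8803 and 8310 in IP20D-3, against 2097, 1085 and 617 in CL11, at least 4.28-fold higher (adjusted p = 0.00241). It was below background on all arrays of IP14D-1 and IP14D-101, where IP20D-3 was at least 4.29-fold higher than each. The acetyl-CoA synthetase Acss1 was at least 5.07-fold and the PI3K inhibitor Pik3ip1 at least 4.73-fold higher than in CL11 (adjusted p = 1.75e-05 and 0.000185). Emp1, an epithelial membrane protein, fell by 3.02 (SE 0.58, adjusted p = 0.00133).

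Cap1 and Ccnb1ip1 were low in IP20D-3 and in none of the other 3 pluripotent lines. Cap1, which recycles actin monomers, had 3231, 2960 and 1474 in IP20D-3, against 45390, 49790 and 48480 in CL11. It had 56600 to 61130 in IP14D-1 and 46160 to 53500 in IP14D-101, so that only IP20D-3 lay near background. Cap1 fell by 4.30 against CL11 (SE 0.19, adjusted p = 6.71e-11), was lower by 4.58 against IP14D-1 and by 4.33 against IP14D-101 (adjusted p = 4.52e-11 and 5.25e-11), and a second probe set gave -3.84 against CL11. Ccnb1ip1, a ubiquitin ligase of meiotic crossing-over, had 2345, 3311 and 2875 in IP20D-3, against 27080, 36250 and 31450 in CL11. It fell by 3.47 (SE 0.25, adjusted p = 2.48e-08), and was lower by 3.08 against IP14D-1 and by 3.34 against IP14D-101 (adjusted p = 3.25e-07 and 4.99e-08).

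Fewer genes were called against IP14D-1 than against CL11, but with no scaling 6585 were lower and 55 higher. Against IP14D-1, 704 genes were higher (3.87%) and 642 lower (3.53%), and against IP14D-101, 1865 were higher (10.3%) and 2136 lower (11.7%), where line and background cannot be told apart. The share of these calls that were higher was 52.3% against IP14D-1, 71.4% with medians and 0.83% with no scaling, and 46.6%, 19.03% and 35.9% against IP14D-101.

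Sex-linked genes gave 1 of 8 higher and 0 lower against CL11. Eif2s3y, a Y-linked translation factor subunit, had 54900, 50670 and 52730 in IP20D-3, against 21550, 17830 and 14830 in CL11, and rose by 1.56 (SE 0.41, adjusted p = 0.0135). Without CL11 replicate 3 the adjusted p was 0.0624. Uty, a Y-linked demethylase paralog, was not called by its brightest probe set (0.86, adjusted p = 0.394), and 2 of its other 3 probe sets were called higher. Xist, the RNA that coats the inactive X, had 13010, 12550 and 11150 in IP20D-3, against 8512, 9561 and 7442 in CL11, which was not called (0.53, adjusted p = 0.0793), while MEF had 105100 to 141200.

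Calls were also counted by chromosome, over genes above background in either line, a grouping taken up after the values were seen. Chromosome 6 had 163 of 561 genes lower (29.1%) and 39 higher (6.95%), with a median difference of -0.23, and chromosome 14 had 108 of 412 lower (26.2%) and 36 higher (8.74%), with a median of -0.15. On the other 17 autosomes 10.7% to 20.3% of genes were lower and 10.6% to 19.01% higher, with medians between -0.072 and 0.12. The X chromosome had 92 of 395 genes higher (23.3%) and 26 lower (6.58%), with a median of 0.13. Array by array, the chromosome 6 median relative to the CL11 mean was -0.24, -0.23 and -0.22 in IP20D-3, -0.21, -0.21 and -0.25 in IP14D-1 and -0.23, -0.22 and -0.26 in IP14D-101, which share the CL11 baseline. Between IP20D-3 and IP14D-1 the medians were 0.002 for chromosome 6 and -0.002 for chromosome 14.

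**Figure D5:**
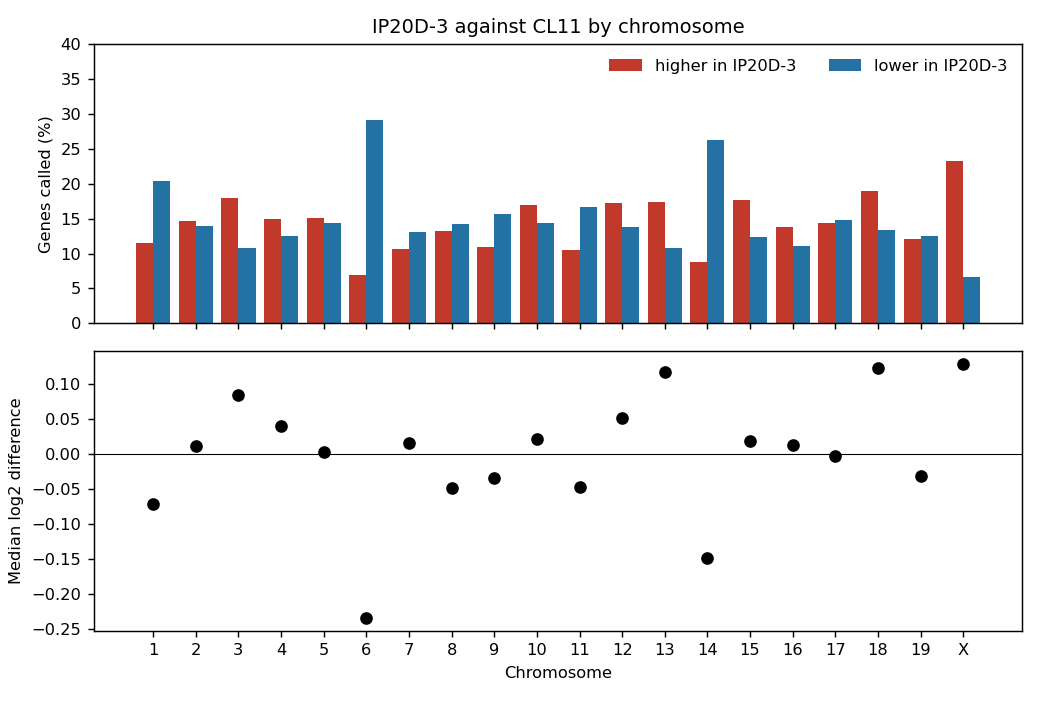
Percentage of genes above background called higher (red) and lower (blue) in IP20D-3 than in CL11 (upper panel), and the median log2 difference (lower panel), for each autosome and the X chromosome. Chromosomes 6 and 14 have the lowest medians, -0.23 and -0.15, and the X chromosome the highest, 0.13.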

How the data were processed

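Total RNA of each sample was hybridised to Affymetrix mouse arrays, and the deposited values are linear signal intensity per probe set. The submitters' processing notes name MAS5 and Affymetrix Expression Console without versions. No scanner files were used. Each array was scaled to the mean of the 2% trimmed means and values were taken as log2(signal + 16). Of 45101 probe sets, 64 were controls; of the other 45037, 34945 named a single gene, 932 several and 9160 none, from GEO's platform annotation. A gene took its probe set with the highest mean over all arrays (18193 genes). Differences were fitted with limma 3.58.1 in R 4.3.3 on all 15 arrays and 45037 probe sets (group means, trended variance, 10 residual and a median of 7.82 prior degrees of freedom), with Benjamini-Hochberg adjustment over 45037. The fit was also run on simulated data with known changes in bright probe sets. That run cannot test the scaling or changes near background. Errors are standard errors of log2 differences unless called SD. Biological replication, 3 samples each, is stated in the design text. The p-values measure the spread between these samples only, pooled over all 5 groups, MEF included. A gene near background in MEF can therefore take a large SE from the MEF arrays. For Uty the SD was 0.08 in IP20D-3 and in CL11 but 1.83 in MEF, and the SE was 0.57.

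For each bound, arrays of the dimmer line below background were raised to it. Genes were named by a rule: among called genes without overlap and with the brighter line above background, leaving out predicted genes, the 10 largest rises and falls with both lines above background and the 6 with the largest bounds per direction; up to 6 called members per direction of each of 42 gene lists; and a list of genes always eligible, such as Pou5f1 and Meg3. Otx2, Slc2a1, Atf3 and Fgf21 fall outside this rule and were named after their values were seen. The comparison, lists and rules were chosen with earlier results of these data known. Promoters and miRNAs are RefSeq's (GRCm38.p6), and gene positions are given only where that table pairs them with a sequence shown. Alternatives in scaling, pseudocount, filter, probe sets tested, arrays fitted, variance trend, replicate block and arrays left out were run.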

Additional observations from a re-analysis of the deposited data

Results flagged for a closer look

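The difference from CL11 was set against that of IP14D-1, the other B6D2F1 iPS line, by testing IP20D-3 minus IP14D-1 in the limma fit for each of the 144 genes the text names. Of these, 50 differed at an adjusted p under 0.05. Most of the 144 were chosen for their difference from CL11, and both comparisons use the IP20D-3 arrays, so this count is a description. No explanation was tested. Values in brackets are IP20D-3 minus IP14D-1 on the log2 scale.

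Maternal RNAs of the Dlk1-Dio3 cluster were called lower than CL11 in IP20D-3, while IP14D-1 was called higher for Meg3 (0.90) and was not called for Rian or Mirg (adjusted p = 0.23 and 0.0975). IP20D-3 minus IP14D-1 was -3.93 for Meg3, -4.30 for Rian (a fitted value, with IP20D-3 below background) and -3.03 for Mirg. Dlk1 gave -1.60, with IP14D-1 called higher than CL11 (1.38).

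Some genes were called lower than CL11 in IP20D-3 and not called in IP14D-1: Cap1 (-4.58), Ccnb1ip1 (-3.08), Eomes (-1.44), Cdkn1a (-1.17), Pdia4 (-1.07), Plk2 (-0.97), Myc (-0.80) and Klf4 (-0.69). Others were called higher than CL11 in IP20D-3 and not called in IP14D-1: Usp26 (3.22, a fitted value with IP14D-1 below background), Rhox9 (1.71), Dppa3 (1.07), Spry1 (0.64), Fn1 (0.46), Cox4i1 (0.42), Rpl13a (0.31) and Mcm7 (0.26). Phf19 (1.37) was called higher than CL11 in IP20D-3 and lower in IP14D-1.

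Both iPS lines were called lower than CL11, with IP20D-3 further from it, for the endoderm genes Pdgfra (-1.71, below background in both iPS lines, so that no fold is given), Col4a2 (-1.62), Col4a1 (-1.32) and Dab2 (-0.56), and for S100a6 (-1.21), Ddc (-1.09), Gbx2 (-1.08), Slc2a1 (-0.65), P4ha2 (-0.55) and Kdm6b (-0.43). IP14D-1 lay further below for Tead4 (1.03) and Ccnd3 (0.49). Both were called higher than CL11, with IP20D-3 further from it, for Acss1 (1.78), S100a13 (1.72), Patl2 (1.65), Erdr1 (1.30), Egr1 (0.89), Sox11 (0.88), Apoe (0.72), Igf2r (0.42) and Fzd7 (0.33). IP14D-1 lay further above for Thbs1 (-1.63), Tagln (-1.47), Plagl1 (-1.03), Gadd45g (-0.94), Chac1 (-0.61), Lefty1 (-0.58) and Herpud1 (-0.54). Col1a1 was below background in IP20D-3 and CL11 and at 4635 to 5299 in IP14D-1 (-3.76, at least 2.37-fold lower in IP20D-3), where the summed fibroblast markers were 64950 to 70130, against 32520 to 34500 in IP20D-3.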

How the results depend on the processing

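Against CL11, 17 alternatives were run, 6 of them leaving out an array. Median scaling gave 949 genes and 1981 probe sets higher, and no scaling 621 and 1239. Leaving out an array gave 1261 to 1479 genes higher and 1390 to 1623 lower, and the filter on background 1913 and 2074. Against IP14D-1, median scaling gave 295 genes lower, no scaling 55 higher and 6585 lower, no variance trend 245 higher and 294 lower, and leaving out an array 402 to 539 higher and 370 to 511 lower. Against IP14D-101, median scaling gave 860 higher and 3659 lower, and no scaling 1051 higher. No other total of genes or probe sets moved by over 1.5 times, and the causes were not tested beyond what fewer arrays entail. Deviations of same-numbered arrays from their group means correlated at -0.0135 to 0.0192, so the number was not taken to pair samples. With a replicate block, 1653 genes were higher and 1778 lower than in CL11.

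Counts for single gene lists moved more: of their checks, 194 differed by over 1.5 times and 1234 did not. Of the checks of the 144 genes named, 2380 kept direction and side of the threshold, 56 were no longer called, 10 became called and 0 reversed. The lost calls fell on 18 genes and are given beside most of them, with no variance trend also ending those of Hars, Socs3, Mvk, Eomes and Rpl13a (adjusted p = 0.067, 0.0808, 0.0908, 0.0549 and 0.0617). The same setting ended those of Dppa3, Eif2s3y, Nr5a2, Mcm7 and Cox4i1 (adjusted p = 0.0744, 0.0752, 0.156, 0.178 and 0.0676). Sox2, Cdh1, Nanog, Uty and Xist became called when only the 6 arrays were fitted (adjusted p = 0.0268, 0.00429, 0.0447, 0.000576 and 0.0215). In that fit Aldh1l2 and Thbs1 were no longer called (adjusted p = 0.053 and 0.0628). Signals under background limit Rian, Gata6, Cubn and the other genes given as bounds.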

Other observations

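Signalling lists that the text above leaves out held members of both directions. Nodal and Activin genes gave 6 higher and 4 lower of 16, and only 1 higher with medians or no scaling. Without CL11 replicate 2, CL11 replicate 3 or IP20D-3 replicate 1, 2 were lower. The Nodal inhibitor Lefty1 had 106100, 109900 and 114500 in IP20D-3, against 33060, 33540 and 31010 in CL11, and rose by 1.76 without overlap (SE 0.11, adjusted p = 2.83e-09), yet it was lower than in IP14D-1 by 0.58 and than in IP14D-101 by 1.25 (adjusted p = 0.00268 and 2.72e-07). LIF receptor and STAT3 targets gave 2 higher and 5 lower of 19, with the receptor Lifr at -0.89 and the feedback inhibitor Socs3 at -0.78 (adjusted p = 0.000504 and 0.0129). Socs3 was not called without CL11 replicate 1, IP20D-3 replicate 1 or IP20D-3 replicate 3 (adjusted p = 0.0649 to 0.0821). FGF and ERK feedback genes gave 4 and 4 of 18 (2 and 6 with medians, 1 and 7 with no scaling, and 2 higher without CL11 replicate 3), with the inhibitor Spry1 at 1.05 and the receptor Fgfr3 at -1.57 (adjusted p = 5.34e-05 and 0.000667). In the BMP and Id axis, with 3 and 3 of 21 (3 and 5 with medians), the ligand Bmp4 had 30450, 29910 and 35820 in IP20D-3, against 79960, 88390 and 85020 in CL11, and fell by 1.40 (SE 0.16, adjusted p = 7.02e-06), while Id2 rose by 1.35 and Id1 fell by 0.96. Wnt signalling targets gave 5 higher and 1 lower of 25 (2 and 2 with medians or no scaling), with the receptors Fzd7 at 1.31 and Fzd2 at 1.16. Immediate early genes gave 6 and 4 of 28 (2 and 4 with no scaling), with Egr1 at 1.49 and Ier3 at -2.01.

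Oxidative stress and NRF2 targets gave 4 higher and 5 lower of 17, and 2 and 8 with no scaling. The metallothionein Mt1 had 747300, 658200 and 695600 in IP20D-3, against 304600, 309600 and 294500 in CL11, and rose by 1.21 (SE 0.08, adjusted p = 1.05e-08), whereas the sulfiredoxin Srxn1 fell by 1.49 (adjusted p = 4.02e-07). Germ line and meiosis genes gave 3 and 3 of 29 (2 and 7 with medians or no scaling), with the synaptonemal complex gene Sycp3 at 2.10 and Tex19.1 at -1.28 (adjusted p = 0.000144 and 0.000659). Trophoblast genes gave 4 higher and 1 lower of 19 (2 and 2 with medians or no scaling, and 2 higher on leaving out an array other than IP20D-3 replicate 2), with Rhox9 at 1.32 and Tead4 at -1.38. Neural ectoderm gave 3 and 3 of 23 (1 and 3 with medians or no scaling), with 1 call below background in both lines. Mesenchymal transcription factors gave 0 and 2 of 22, endothelium, cartilage and skeletal muscle 0 and 2 of 22 with 1 call below background in both lines, the 2-cell-like state 0 and 0 of 7, and reference genes 3 and 0 of 12, with B2m and Rpl13a (0.32) among them. Rpl13a was not called with medians, quantile normalization or no scaling (adjusted p = 0.425, 0.189 and 0.62). Primitive streak and mesoderm genes gave 0 higher and 3 lower of 22, 1 of them below background in both lines, and 1 lower without CL11 replicate 1, CL11 replicate 2 or IP20D-3 replicate 1. Eomes, a regulator of mesoderm and endoderm, stood at -1.39 and was not called without any of these 3 arrays (adjusted p = 0.0677 to 0.126). Of 32 HOX genes, 5 were above background in either line, and of the 3 calls 2 lay below background in both lines. Of 19 macrophage and blood genes, 5 were above background, and of the 3 calls 1 lay below it in both lines.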
